A study of Mus musculus with 2 samples.

Results

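Ppy, Pyy and Npy, the genes for pancreatic polypeptide, peptide YY and neuropeptide Y, were followed in single islet cells of 1-month-old mice. These 3 genes were taken by symbol from the 46984 features listed for both libraries. The mice had 1 (control) or 2 (Isl1CKO) Isl1 alleles that Cre recombinase can delete. Each genotype gave 1 library, made by pooling islet cells of 3 animals and sorting those with the fluorescent reporter tdTomato. Control animals were Neurod1 Cre/+; Isl1f/+ and carried 1 floxed Isl1 allele, and Isl1CKO animals were Neurod1 Cre/+; Isl1f/f and carried 2. Both thus carried the Cre allele at Neurod1, a gene of endocrine cells, so deletion is limited to cells that expressed Cre, and islets of both were dispersed in actinomycin D, which blocks new transcription. The labels describe the control pool as male and the Isl1CKO pool as female and male, and name no strain.

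Pancreatic polypeptide, peptide YY and neuropeptide Y form 1 family of short amidated peptides that act on the Y receptors, a group of G-protein-coupled receptors. In the islet, pancreatic polypeptide defines gamma cells, beside alpha cells that make glucagon (Gcg), delta cells that make somatostatin (Sst) and beta cells that make insulin (Ins1, Ins2). Peptide YY is best known from gut endocrine cells and is also made in islets, and neuropeptide Y is best known as a peptide of neurons. Isl1 is a transcription factor with LIM domains and a homeodomain that islet endocrine cells express.

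In the GENCODE vM21 annotation of GRCm38, Ppy (ENSMUSG00000017316.13) lies on the minus strand of chromosome 11 at 102099930 to 102101319, and Pyy (ENSMUSG00000017311.15) on the same strand at 102106676 to 102107832. The 2 genes lie side by side, 5356 bases apart, and Npy (ENSMUSG00000029819.6) lies on the plus strand of chromosome 6 at 49822710 to 49829507. Each has up to 4 exons and none overlaps another annotated gene. The 250 bases before each start, from RefSeq promoters of GRCm38.p6, are shown because Ppy and Pyy moved together between the libraries and Npy was hardly detected. They are written 5′ to 3′ along the gene's strand, from chr11:102101320-102101569 (minus strand), chr11:102107833-102108082 (minus strand) and chr6:49822460-49822709 (plus strand), with matches to TATAA or CANNTG in capitals.
Ppy: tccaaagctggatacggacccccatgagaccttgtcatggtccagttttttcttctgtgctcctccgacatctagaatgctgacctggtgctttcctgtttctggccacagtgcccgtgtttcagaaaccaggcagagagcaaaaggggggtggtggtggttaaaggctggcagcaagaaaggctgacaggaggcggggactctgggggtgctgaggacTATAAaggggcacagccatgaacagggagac
Pyy: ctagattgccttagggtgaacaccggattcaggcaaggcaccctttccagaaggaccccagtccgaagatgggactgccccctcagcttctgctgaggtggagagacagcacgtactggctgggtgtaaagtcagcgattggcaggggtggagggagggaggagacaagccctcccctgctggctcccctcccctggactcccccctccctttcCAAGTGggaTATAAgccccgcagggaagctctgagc
Npy: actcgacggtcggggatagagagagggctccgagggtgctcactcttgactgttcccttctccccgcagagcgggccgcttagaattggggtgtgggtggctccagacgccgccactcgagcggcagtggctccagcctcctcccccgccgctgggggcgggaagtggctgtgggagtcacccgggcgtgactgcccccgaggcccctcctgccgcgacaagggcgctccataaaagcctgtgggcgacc

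The letters TATAA (either strand) stood 31 bases before the start of Ppy and 27 bases before that of Pyy, and were not in the Npy window. Of 32851 RefSeq promoter windows of this length, 22.8% hold TATAA. The letters CANNTG, the core of an E-box, occurred 1 time, 36 bases before the start of Pyy (66.2% of windows hold it). The letters TAAT (either strand), the core that homeodomain proteins bind, were in none of the 3 windows, against 54.9% of all windows. The Npy window differed in base composition, with 69.2% G and C and 21 CG dinucleotides, against 55.2% and 4 for Ppy and 61.2% and 5 for Pyy (median of all windows, 52.4% and 6).

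Counts are UMIs, unique molecular identifiers that mark each captured RNA molecule 1 time; totals were 48685758 for control and 86086781 for Isl1CKO. Filtering left 3867 control and 7545 Isl1CKO endocrine cells, with medians of 8902 and 8501 UMIs per cell. Cells called female (Xist and no Y-linked UMI) and male (the reverse) numbered 897 and 1601 in control and 5017 and 1543 in Isl1CKO. All other cells were left unassigned, and a call can rest on 1 UMI. The control pool thus held cells with Xist and no Y-linked UMI although its label says males, and the calls differed in share between the genotypes. Of the barcodes, 8 were cells in both libraries, and none of these was among the Isl1CKO cells with much Ppy or Pyy described below. With 1 library per genotype there is no replicate check and no test between genotypes. All intervals are 95% intervals (exact Poisson for counts, exact Clopper-Pearson for shares) and cover counting error only.

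In control cells both Ppy and Pyy were abundant far beyond gamma cells. A cell was counted as holding a hormone when that hormone made up at least 1% of its UMIs. Ppy reached this in 1824 of 3867 control cells (47.2%, interval 45.6 to 48.8) and Pyy in 2260 (58.4%, 56.9 to 60.0). Over all control endocrine cells Ppy stood at 708.1 and Pyy at 591.4 UMIs per 10000 UMIs, a level within the library. Npy stood at 0.0369 per 10000. Scaled between the libraries (CPM, counts scaled to a common library size with TMM factors), the control levels were 85008, 70998 and 4.43 CPM.

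Cells were then sorted into classes by Gcg, Sst and insulin alone, whatever their Ppy, so that the level of Ppy was free to vary within each. The classes held 1862 cells with Gcg only, 1165 with Sst only, 202 with insulin only and 511 with none of these hormones, and are called Gcg cells, Sst cells, insulin cells and hormone-free cells here. Of the hormone-free cells 424 held Ppy and are called Ppy-only cells, the gamma class. Median UMIs per cell were 9500 in Gcg cells, 7296 in Sst cells, 18488 in insulin cells and 12486.5 in Ppy-only cells, so insulin cells were sampled most deeply.

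The Gcg, Sst and insulin classes carried markers of their names, whereas most markers of the gamma class did not set the Ppy-only cells apart. Hhex, the transcription factor of delta cells, had a UMI in 53.8% of the Sst cells without Ppy and in 0.524% of the Gcg cells without Ppy. Irx1, a homeobox gene of alpha cells, had a UMI in 68.7% of Gcg cells without Ppy, 3.30% of Ppy-only cells and 1.90% of Sst cells without Ppy. Ucn3 and Slc2a2, genes of mature beta cells, stood at 1.00 and 3.52 per 10000 in insulin cells without Ppy and at 0.00202 and 0.00471 in Gcg cells without Ppy. Ppy-only cells had Spp1 at 2.23 per 10000, against 0.124 in Gcg cells and 1.04 in Sst cells without Ppy. Of the other gamma markers, Etv1 (2.00) and Meis2 (1.72) stood at like levels in Gcg cells without Ppy (1.85 and 1.64). Both were higher in Sst cells without Ppy (2.37 and 3.31). In Ppy-only cells Aqp3 had 0 UMIs, and Id4 and Sertm1 stood at 0.00728 and 0.0273, below Gcg cells without Ppy (0.039 and 0.0525). The name gamma therefore rests on Ppy itself, with Pyy.

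Ppy was graded across the classes. Ppy-only cells had a median of 3558 UMIs per 10000 (quartiles 2896 and 4162), a level that the class definition itself favours. Sst cells had a median of 364.9 (quartiles 171.6 and 640.3), Gcg cells 9.28 (4.26 and 43.2) and insulin cells 3.60 (1.91 and 11.3). The interquartile ranges of Sst and Gcg cells did not overlap, and those of Gcg and insulin cells did. Ppy reached 1% in 82.0% of Sst cells (interval 79.6 to 84.1), 18.1% of Gcg cells (16.3 to 19.9) and 12.4% of insulin cells (8.17 to 17.7).

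Pyy followed another order of distances. Its median was 1783 per 10000 in Ppy-only cells (quartiles 1264 and 2351), 884.2 in Sst cells (625.6 and 1185), 34.7 in Gcg cells (10.0 and 121) and 2.83 in insulin cells (1.51 and 24.1). Sst cells were nearly uniform for Pyy: 1163 of 1165 (99.8%) held it at 1% or more, and 38.0% held it at 10% or more, against 4.98% for Ppy. In Gcg cells Pyy reached 1% in 28.6% and in insulin cells in 14.4%. In Ppy-only cells Ppy reached 10% in 96.2% and Pyy in 86.3%.

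**Figure D1:**
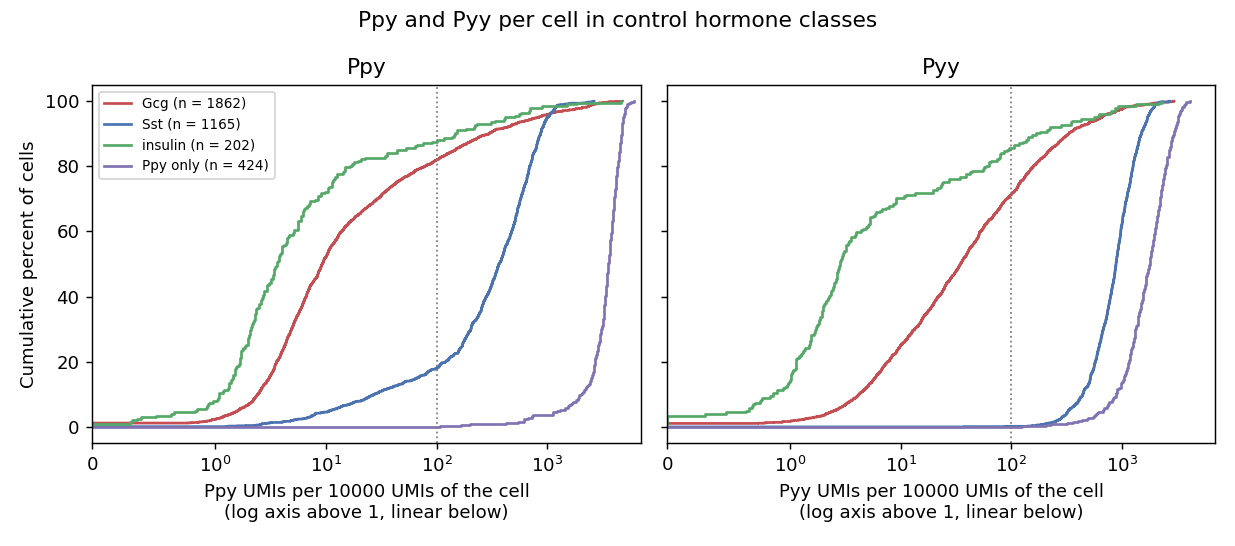
Cumulative percent of control cells (y axis) against the level of Ppy (left) and Pyy (right) in UMIs per 10000 UMIs of the cell (x axis, logarithmic above 1 and linear below), 1 line per class. The dotted line marks 1% of UMIs; nearly the whole Sst line lies to its right for Pyy, while for Ppy 82.0% of Sst cells and 18.1% of Gcg cells do.

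Summed over cells, Ppy was higher in Sst cells than in Gcg cells by a log2 ratio of 1.38 (455.1 against 175.3 per 10000; interval 1.37 to 1.38), and Pyy by 2.66 (963.3 against 152.0; 2.66 to 2.67). Both were thus called higher (a change of at least 2-fold whose interval leaves out 1) in a comparison in which 12.0% of 10147 measured genes were called higher and 3.88% lower; the median gene had a log2 ratio of 0.32. With UMIs other than hormones as the total, the values were 1.21 and 2.50. The sums hide how uneven Gcg cells were: their mean Ppy of 175.3 per 10000 stands against a median of 9.28, and 4.08% of them held Ppy at 10% or more.

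Insulin cells gave no stable order against Gcg cells. Summed, Ppy was lower in them by a log2 ratio of -1.43 (65.1 against 175.3 per 10000) and Pyy by -1.18 (66.9 against 152.0). With UMIs other than hormones as the total, the ratios were -0.60 and -0.35. The ratios that follow use all UMIs as the total. Among female cells the order was the opposite, at 1.51 for Ppy and 1.14 for Pyy, with only 28 insulin cells, and among male cells, with 104, the ratios were -2.93 and -2.13. Without cells of more than 20000 UMIs the ratio was 0.17 for Ppy and -0.04 for Pyy. That alternative was added after the data were seen.

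The low end of both genes lay at the level of free RNA. Barcodes of at most 100 UMIs in control, which hold RNA outside cells, had Ppy at 6.88% and Pyy at 6.55% of their UMIs. From the insulin UMIs in Gcg cells without Ppy, free RNA made up about 0.840% of a Gcg cell's UMIs, which would give 5.78 UMIs of Ppy and 5.50 of Pyy per 10000. The Ppy median of Gcg cells, 9.28, lay close to this, whereas their Pyy median, 34.7, lay above it. The medians of insulin cells, 3.60 and 2.83, lay below it. The free RNA share of insulin cells was not estimated. They had more UMIs per cell (median 18488) than the Gcg cells used (9361), so their share may differ. Almost every control cell had at least 1 Ppy UMI (99.2%), as did all 4 macrophage-like cells, at 10.8 per 10000 and a median of 3518 UMIs, so the share of cells with a UMI is not read as expression. The counts at 1% or more lie well above that level.

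The balance between Ppy and Pyy differed among classes. Per UMI of Pyy there were 1.84 UMIs of Ppy in Ppy-only cells, 1.15 in Gcg cells, 0.973 in insulin cells and 0.472 in Sst cells, against 1.05 in free RNA. Cell by cell, Pyy exceeded Ppy in 84.0% of Sst cells, 69.1% of Gcg cells, 41.6% of insulin cells and 10.8% of Ppy-only cells. The ratios in Sst and Ppy-only cells thus lay on opposite sides of the ratio in free RNA. The Ppy-only class was set by Ppy, which favours a high ratio there and few cells with more Pyy than Ppy. In the 511 hormone-free cells, set without regard to Ppy, the ratio was also 1.84. Both genes are compared here as UMIs from a 3′ assay, which counts molecules without regard to length.

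Holding Ppy and holding Pyy largely coincided. Of the 1824 cells with Ppy, 1766 (96.8%, interval 95.9 to 97.6) also held Pyy. Of the 2260 cells with Pyy, the same cells made up 78.1% (76.4 to 79.8), and 494 cells held Pyy without Ppy. Among these were 244 Gcg cells and 208 Sst cells. Only 58 cells held Ppy without Pyy. Near the limit, 172 cells had Ppy between 0.5% and 1% and 276 between 1% and 2%.

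Most cells with Ppy also held glucagon, somatostatin or insulin. That was the case in 1400 of 1824 (76.8%, interval 74.7 to 78.7). This share was lower than among all 3867 control cells, of which 511 held none of these hormones, 424 of them Ppy cells. Somatostatin was held by 56.6% of the Ppy cells, glucagon by 21.2% and insulin by 3.84%. The largest such classes were 955 cells with Sst and Ppy and 336 with Gcg and Ppy. Their median UMIs, 7271 and 9973, were close to those of Sst cells without Ppy (7442) and Gcg cells without Ppy (9361). Scrublet had by then marked 249 of 4219 control cells (5.90%) as doublets, which were removed. The 5 cells with all 4 hormones had 7971, 10162, 42417, 42976 and 57957 UMIs.

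The cells with Sst and Ppy carried delta markers. Hhex had a UMI in 56.4% of them and in 1.18% of Ppy-only cells. Rbp4, a retinol carrier that is high in delta cells, stood at 109 per 10000 in them and at 4.2 in Ppy-only cells. The cells with Gcg and Ppy lay between Gcg cells without Ppy and Ppy-only cells for Irx1 and Spp1, but not for every marker. Irx1 stood at 1.03 per 10000 in them, at 1.55 in Gcg cells without Ppy and at 0.0401 in Ppy-only cells. Spp1 stood at 0.370, 0.124 and 2.23 in the same order. Etv1 (2.29, 1.85 and 2.00) and Meis2 (1.91, 1.64 and 1.72) were highest in the cells with Gcg and Ppy. Id4 (0.0185, 0.039 and 0.00728) and Sertm1 (0.0317, 0.0525 and 0.0273) lay between, at low levels.

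Within Sst cells the level of Pyy did not go with that of Ppy. The 955 Sst cells with Ppy and the 210 without it had Pyy at 963.3 (interval 961.0 to 965.5) and 963.4 (958.6 to 968.3) UMIs per 10000, with medians of 878.9 and 922.4. Ppy itself was 545.6 and 31.7, a gap set by the class limit. Across the 1165 Sst cells the Pearson correlation of log(1 + UMIs per 10000) between Ppy and Pyy was 0.06 (Spearman 0.001). It was 0.71 (0.63) across 1862 Gcg cells, 0.77 (0.65) across 202 insulin cells, 0.13 (-0.13) across 424 Ppy-only cells and 0.82 (0.81) across all 3867 control cells. Cells of 1 library share its free RNA and their own depth, and these coefficients are descriptions.

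**Figure D2:**
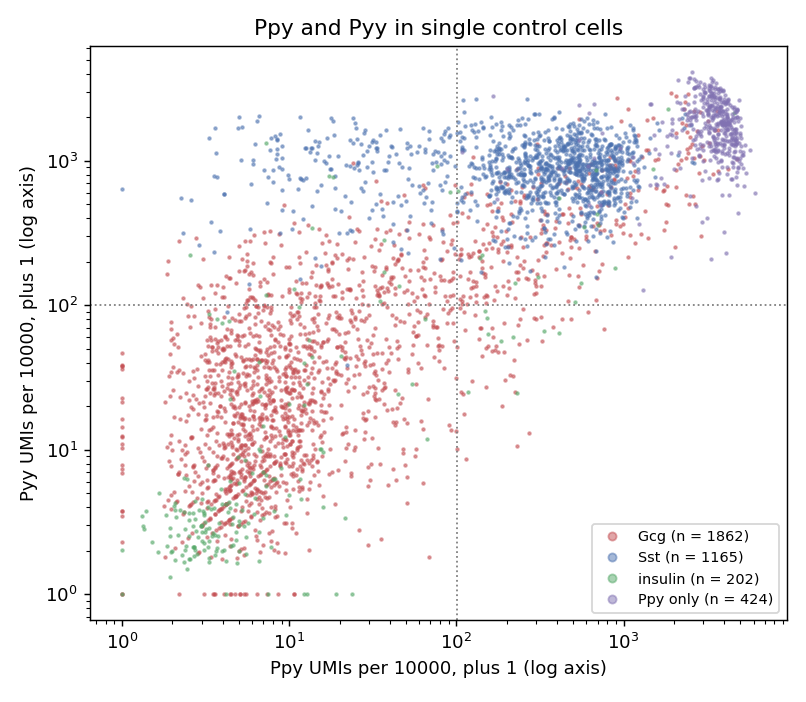
Pyy (y axis) against Ppy (x axis) in single control cells, both as UMIs per 10000 UMIs plus 1 on logarithmic axes, 1 point per cell, coloured by class, with dotted lines at 1% of UMIs. Sst cells form a flat band at high Pyy across a wide range of Ppy (r of 0.06), while Gcg cells rise along a diagonal (r of 0.71).

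In the control pool, cells called female and cells called male differed in how many held these peptides. The label of this pool says males, and the calls were not checked in another way. Ppy reached 1% in 38.9% of 897 female cells (interval 35.7 to 42.2) and 48.7% of 1601 male cells (46.2 to 51.2). Among Gcg cells the shares were 12.6% of 538 female and 19.9% of 724 male cells. Among Sst cells they were 84.1% of 207 female and 79.7% of 507 male cells, with overlapping intervals. The animals behind each cell are not known, so sex and animal cannot be told apart.

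Npy was rare in control islet cells and sat in a few of them. It had 145 UMIs in 20 of 3867 cells (0.517%, interval 0.316 to 0.798), and 2 cells with 51 and 42 UMIs held 93 of them. The next cells had 10, 8 and 5 UMIs, and 10 of the 20 cells had 1 UMI each. By class, 15 of the 20 cells held somatostatin (86 UMIs) and the other 5 held insulin without somatostatin (59 UMIs). No Npy UMI was found in 1862 Gcg cells or in 424 Ppy-only cells. Taken as 3 counts, a count of 0 allows a UMI in up to 0.161% and 0.708% of these cells, which limits cells with a UMI and not cells that express the gene. Npy was thus not detected in the class with the highest Ppy and Pyy.

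By a rule set for the purpose, the genes most like each member were those with the highest Pearson correlation over the 3867 control cells among 4596 genes. For Ppy these were Pyy (0.82), Tspan8 (0.67), Scg2 (0.55), Clu (0.55), Folr1 (0.49) and Bambi (0.38). For Pyy they were Ppy (0.82), Scg2 (0.67), Clu (0.65), Tspan8 (0.64), Sst (0.56) and Fam159b (0.50). Tspan8, a tetraspanin, stood at 6.88 per 10000 in Ppy-only cells, 5.01 in Sst cells, 0.751 in Gcg cells and 0.603 in insulin cells. That is the order of both members, which the choice itself favours, since Tspan8 was picked by correlation with them over the same cells. Scg2, the granin secretogranin II, and Clu, the secreted chaperone clusterin, were highest in Sst cells, at 57.9 and 7.56, against 28.4 and 4.04 in Ppy-only cells. Npy was found in under 1% of cells and was not ranked.

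In the Isl1CKO library Ppy and Pyy were nearly gone. Summed over endocrine cells, Ppy went from 85008 CPM in control (interval 84908 to 85108) to 100.6 CPM in Isl1CKO (98.5 to 102.7), a log2 ratio of -9.72 (-9.75 to -9.69). Pyy went from 70998 CPM (70907 to 71090) to 146.8 CPM (144.3 to 149.3), a log2 ratio of -8.92 (-8.94 to -8.89). These are 845-fold and 484-fold lower levels. Both were called lower, in a comparison in which 6.09% of 10326 measured genes were called lower and 6.84% higher, with a median log2 ratio of 0.06. Among female cells the ratios were -9.00 and -8.05 and among male cells -10.42 and -9.65.

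Npy was under the 5 CPM that a gene needed in 1 library to be measured, so 2 of the 3 members were. It went from 145 UMIs in 3867 control cells to 1 UMI in 7545 Isl1CKO cells, or from 4.43 to 0.0111 CPM, with a log2 ratio of -7.66 (-13.96 to -6.14). Since 2 control cells held 93 of the 145 UMIs, this difference rests on very few cells.

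The Isl1 counts do not check the deletion. Isl1 stood at 363.8 CPM in control and 293.9 in Isl1CKO, and reads of a 3′ assay cannot show the loss of exons elsewhere in the gene. The floxed exons are not given in the sources used here. Free RNA mirrored the cells: Ppy made up 6.88% of it in control and 0.00671% in Isl1CKO, and Pyy 6.55% and 0.0145%.

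Few Isl1CKO cells had either peptide. In Isl1CKO 95.4% of cells had no Ppy UMI and 94.3% had no Pyy UMI. These shares cannot be set against control as expression, because free RNA gave nearly every control cell a UMI. Thinning to 3000 UMIs per cell evens the depth but does not remove free RNA, so the same limit holds after it. Thinned, 91.0% of all control cells (118 left out) and 2.38% of all Isl1CKO cells (246 left out) had a Ppy UMI. Among Gcg cells it was 83.0% of the control ones without Ppy (46 left out) and 1.22% of the Isl1CKO ones (6 left out). Most of the Isl1CKO cells that had Ppy at all had 1 UMI (221 of 346), as did 230 of the 432 with Pyy. Ppy reached 1% of UMIs in 10 Isl1CKO cells (0.133%, interval 0.0636 to 0.244) and Pyy in 20 (0.265%, 0.162 to 0.409), against 1824 and 2260 control cells.

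**Figure D3:**
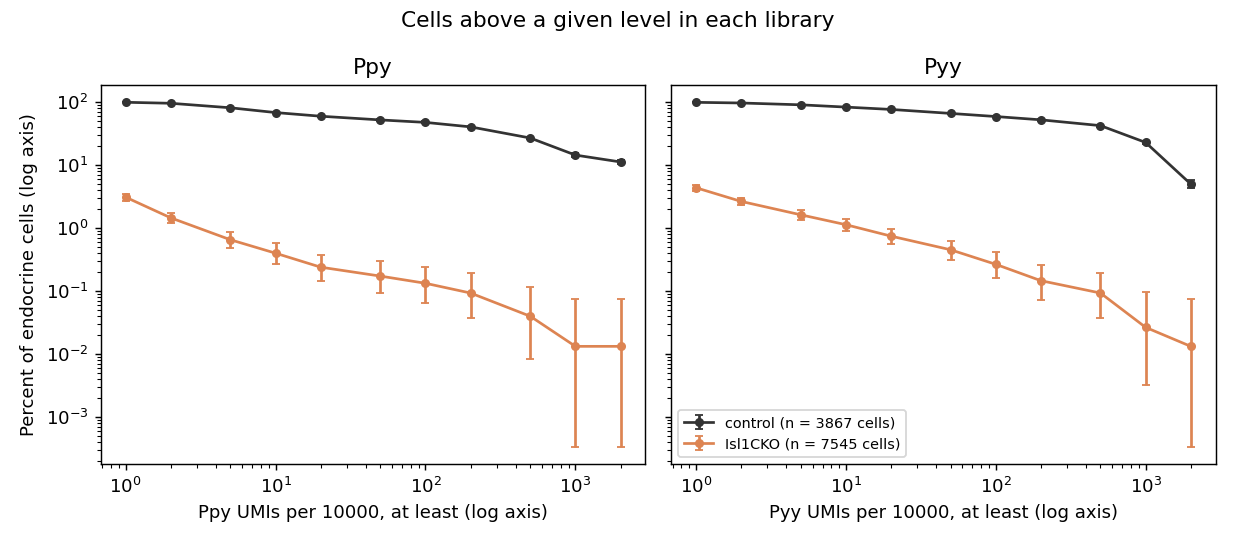
Percent of endocrine cells (y axis, logarithmic) with at least the level of Ppy (left) or Pyy (right) given on the x axis (UMIs per 10000 UMIs, logarithmic) in each library, with exact Clopper-Pearson 95% intervals; levels that no cell reached are not drawn. At 100 per 10000, which is 1% of UMIs, 47.2% of control and 0.133% of Isl1CKO cells remain for Ppy, and 58.4% and 0.265% for Pyy.

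What Ppy remained was held by few cells. Of 9096 Ppy UMIs in Isl1CKO, 1 cell held 5206 (57.2%), the next held 806, and the top 10 held 88.1%. In control the top cell held 0.602% of all Ppy UMIs and the top 10 held 4.06%. Of 13275 Pyy UMIs in Isl1CKO, the top cells held 3131 (23.6%) and 2895, and the top 20 held 82.3%. Without the 1 cell with the most Ppy, a choice made after the data were seen, the log2 ratios between the libraries were -10.95 for Ppy and -9.31 for Pyy. Without the Isl1CKO cells that held somatostatin, likewise chosen afterwards, they were -10.22 and -9.95.

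Ppy or Pyy reached 1% of UMIs in 22 Isl1CKO cells, in 8 of them both. The cell with the most Ppy had 5206 Ppy and 3131 Pyy UMIs of 16458, or 31.6% and 19.0%. Both shares lie between the quartiles of the control Ppy-only cells. It had 0 Sst, 1 Gcg and 7 insulin UMIs, 2 of Iapp, 4 of Isl1 and 85 of tdTomato. The second cell by Pyy had 2895 Pyy UMIs of 13361 (21.7%) with 32 of Ppy, 741 of Sst and 4 of Hhex.

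Somatostatin was the hormone most often found in these cells. It reached 1% in 11 of the 22, which were also all 11 Isl1CKO cells of the library with somatostatin only. In those 11 cells Ppy had a median of 164.2 per 10000 and Pyy of 541.6, against 364.9 and 884.2 in the 1165 control Sst cells. Ppy reached 1% in 8 of the 11 (72.7%, interval 39.0 to 94.0) and Pyy in 10 (90.9%, 58.7 to 99.8). Of the 8 cells with both peptides, 7 held somatostatin.

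No Isl1CKO cell that held glucagon or insulin held Ppy or Pyy. In the 170 Isl1CKO Gcg cells there were 31 Ppy UMIs in 4 cells and 12 Pyy UMIs in 8 cells, or 0.131 and 0.0506 per 10000, against 175.3 and 152.0 in control Gcg cells. In the 906 Isl1CKO insulin cells Ppy and Pyy stood at 0.127 and 0.197 per 10000, against 65.1 and 66.9 in control insulin cells. Taken as 3 counts, a count of 0 at 1% or more allows up to 1.76% of the Gcg cells and 0.331% of the insulin cells. The free RNA expected in an Isl1CKO Gcg cell was 0.00678 per 10000 for Ppy and 0.0147 for Pyy. The control means are carried by a minority of cells, with medians for Ppy of 9.28 in Gcg and 3.60 in insulin cells. For Pyy the control medians were 34.7 in Gcg and 2.83 in insulin cells. Most control Gcg and insulin cells (98.6% and 94.1%) lay in clusters 0 and 12, whereas the largest share of the Isl1CKO ones (57.6% and 38.0%) lay in clusters 5 and 8. The 11 Sst cells differed from these, with summed levels of 249.6 for Ppy and 635.5 for Pyy per 10000 against 455.1 and 963.3 in control.

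Of the 22 cells, 11 held neither somatostatin nor another of these hormones at 1%. Apart from the cell with the most Ppy they had low levels, with Pyy between 0.161% and 1.57% of UMIs. One of them had 327 Ppy and 26 Pyy UMIs of 16188, and 9 reached 1% for Pyy only. Pyy alone at 1% was seen in 12 of the 22 cells and Ppy alone in 2.

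The 22 cells were compared with the other 7523 Isl1CKO cells for marks of origin. Hhex had a UMI in 54.5% of them and in 6.70% of the others. Within the 22 it had a UMI in 81.8% of the 11 with somatostatin and 27.3% of the 11 without. Isl1 stood at 5.20 per 10000 in the 22 cells and 3.53 in the others, and had a UMI in 90.9% and 86.6%. Their median mitochondrial share was 1.01% (1.47% in the others), and 16 were female, 5 male and 1 undetermined. The reporter tdTomato ranged from 3.88 to 107.8 per 10000 in the 22 cells with a median of 48.2, against a median of 62.1 in the others and 11.2 in control cells with Ppy. It differed with sex: the 16 female cells had a median of 66.2 (78.5 in the other female Isl1CKO cells) and the 5 male cells 8.26 (14.1 in the other male cells). In 4 of the 22 cells and in 10.6% of the others it was at or below the pooled level of control cells with Ppy, 11.9. Of the 22 cells 8 (36.4%) fell in clusters made up mainly of control cells, against 19 of the 7523 others (0.253%). Of these 8 cells, 6 held somatostatin and 2 did not. Whether any of these marks has a part in the residual expression was not tested.

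**Figure D4:**
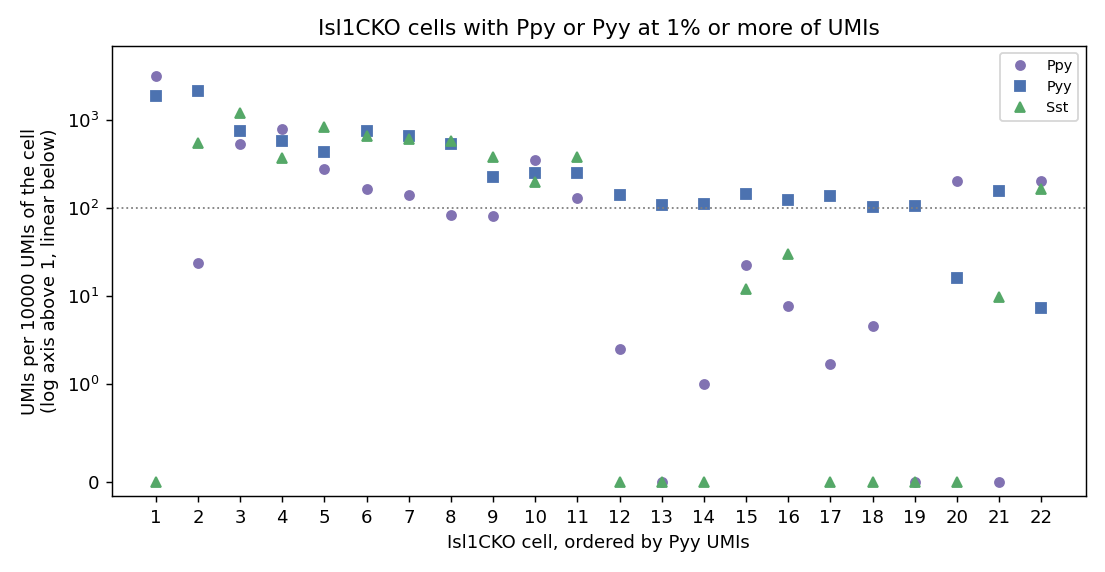
Levels of Ppy, Pyy and Sst (y axis, UMIs per 10000 UMIs, logarithmic above 1 and linear below) in each of the 22 Isl1CKO cells with Ppy or Pyy at 1% of UMIs or more (x axis, ordered by Pyy UMIs), with a dotted line at 1%. Cell 1 alone combines Ppy and Pyy above 10% with no Sst UMI, and cells 2 to 11 all have Sst above the 1% line.

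Over the 7545 Isl1CKO cells the members went with each other and with Sst by Pearson correlation, and less so by rank. The correlation of Ppy with Pyy was 0.52 (Spearman 0.24), that of Ppy with Sst 0.57 (0.16) and that of Pyy with Sst 0.49 (0.18). Most of these cells had no Ppy UMI (95.4%) or no Pyy UMI (94.3%), so the Pearson values rest on few cells. Ppy and Sst had a UMI in under 5% of these cells and so fell outside the ranking of nearest genes. Among the genes ranked besides Pyy, the highest were Igfbp7 and Tspan8 for Ppy (0.14 and 0.13) and Tspan8 for Pyy (0.16). Tspan8, Scg2 and Clu, the genes closest to the members in control, stood at 323.4, 2877 and 337.4 CPM in control and at 102.4, 397.0 and 65.5 in Isl1CKO, log2 ratios of -1.66, -2.86 and -2.37.

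None of the measured neighbours of Ppy and Pyy was lower to the same extent. Of the genes that start within 50 kb, Tmem101 stood at 22.7 CPM in control and 20.1 in Isl1CKO (log2 ratio -0.17). Mpp2, which lies downstream of Ppy and codes for a membrane scaffold protein, went from 28.5 to 6.89 CPM (-2.05, interval -2.20 to -1.90) and was called lower. Within control, Mpp2 stood at 0.237 per 10000 in Ppy-only cells, 0.343 in Sst cells, 0.228 in Gcg cells and 0.0634 in insulin cells, so it was lowest in insulin cells, as Ppy was, and highest in Sst rather than Ppy-only cells. Nags had 11 and 18 UMIs, the pseudogene Gm11585 had 1 and 0, and Gm11584 and Gm11586 had none. Near Npy the only such gene, the pseudogene Gm18007, had none.

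Receptors of the family were hardly detected in either library. Of the 5 Y receptor genes none was measured at 5 CPM. Npy1r had 11 UMIs in control, all in Gcg cells, and 87 in Isl1CKO. Npy4r, the receptor that prefers pancreatic polypeptide, had 0 and 1, and Npy2r, Npy5r and Npy6r had none in either library.

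The 10 genes of peptide processing and release were all measured, and 3 were called lower and 2 higher in Isl1CKO; over all measured genes 6.09% were lower and 6.84% higher. Their median log2 ratio was -0.16, against 0.06 over all genes. Pcsk2, a prohormone convertase, stood at 4107 and 5134 CPM (0.32), and Pam, which makes the amide end of these peptides, at 849.4 and 946.1 (0.16). Pcsk1, another prohormone convertase, was lower (53.4 and 24.9 CPM, -1.10), as was Dpp4, which trims peptide YY and neuropeptide Y (73.0 and 21.7 CPM, -1.75). The granins went both ways: Chga and Chgb were higher (2.29 and 2.21) and Scg2 was lower. The genes that make the members' mature peptides were thus still measured in cells that lacked the members.

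Of 17 other peptide genes 12 were measured, 5 called lower and 6 called higher (6.09% and 6.84% of all measured genes), and their median log2 ratio was 1.04. Sst (-9.09) was lower by as much as Pyy, Gcg was lower by -7.67, and Ins1 and Ins2 by -2.59 and -2.07. Ucn3, a beta cell peptide of the corticotropin-releasing family, was lower by -5.70. In control it had 377 UMIs in insulin cells and 5 in Gcg cells. The 6 higher ones were Ghrl (5.85), Cck (5.88), Gip (7.89), Sct (3.74), Tac1 (3.05) and Cartpt (5.16), peptides of epsilon cells, gut endocrine cells and neurons. Npy was not among them, with 1 UMI in Isl1CKO.

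Of the 13 islet transcription factors reported here all were measured, 3 called lower and 1 called higher (6.09% and 6.84% of all measured genes), and their median log2 ratio was -0.20. Hhex, present in Sst cells of control, was lower by -2.52 (41.0 and 7.14 CPM). Pdx1 (-1.69) and Neurog3 (-2.15) were lower, and Fev (1.54) was higher. Pax6 (0.64), Neurod1 (0.32), Nkx2-2 (0.65), Rfx6 (0.33) and Etv1 (-0.29) were not called. Unscaled CPM moves all log2 ratios by 0.53 and turns the medians of the processing genes and of the factors positive (0.37 and 0.33). Under it Pcsk1 no longer passes 2-fold (-0.57), and Pax6 (1.17), Nkx2-2 (1.17) and Nkx6-1 (1.33) do, so that 4 factors are higher; the other calls in these 3 lists pass 2-fold as before.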

How the data were processed

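The authors deposited 2 matrices of raw UMI counts, 1 per library, unfiltered and not normalized. Per the labels, cells were captured with the 10x 3′ kit, version 3.1, and the submitters' processing notes name the GRCm38.p6 build, STARsolo with STAR 2.7.3a, and Seurat 4.3.0.1.

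Barcodes with 1000 UMIs, 500 genes and no more than 15% mitochondrial UMIs were kept as cells. The doublet caller Scrublet (scanpy 1.11.5) removed 249 control cells; in Isl1CKO it marked 0 of 8231 and so failed. Leiden clustering (leidenalg 0.10.2, resolution 1.0) gave clusters; those with acinar, stromal or macrophage markers (50 control and 208 Isl1CKO cells) and a low-UMI cluster (53 and 478) were left out. Summed counts were scaled with TMM factors (edgeR 4.0.16, R 4.3.3), and log2 ratios used 1 added to each count. A gene was measured at 5 CPM and called when it differed by at least 2-fold and its interval left out 1. The genes named are the 3 members, fixed lists of receptors, processing genes, peptides and factors, genes starting within 50 kb, and the 6 nearest genes by correlation among those at 20 CPM or more with a UMI in at least 5% of cells. Some genes of these lists are not reported here. Members and lists were chosen with earlier results of these data known. The ratio code was tested on simulated data.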

Additional observations from a re-analysis of the deposited data

Results flagged for a closer look

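In control, the log2 ratio of insulin cells over Gcg cells pointed in opposite directions in cells called female and cells called male. For Ppy it was 1.51 in female and -2.93 in male cells, and for Pyy 1.14 and -2.13. The difference was not tested. It rests on 28 female and 104 male insulin cells of 1 pool, with medians of 14466.5 and 20681 UMIs. Ppy reached 1% in 9 of the 28 (32.1%, exact interval 15.9 to 52.4) and 11 of the 104 (10.6%, 5.4 to 18.1).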

How the results depend on the processing

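The log2 ratios of Isl1CKO over control stayed negative for Ppy and Pyy under every alternative run. Ppy was -9.20 with unscaled CPM, -9.80 with genes under 5 CPM left out before TMM, -9.76 with doublets kept, -9.00 in female and -10.42 in male cells, -10.95 without the Isl1CKO cell with most Ppy and -10.22 without Isl1CKO cells holding Sst. Pyy was -8.39, -8.99, -8.97, -8.05, -9.65, -9.31 and -9.95 in the same order. The ratio of Sst over Gcg cells for Ppy was 1.24 and 1.55 at hormone limits of 0.5% and 5%, 1.21 with UMIs other than hormones as total, 1.25 with doublets kept, 1.41 with free RNA subtracted, 1.96 in female and 1.22 in male cells and 1.61 without cells over 20000 UMIs. For Pyy it was 2.53, 2.80, 2.50, 2.40, 2.71, 3.00, 2.51 and 2.79 in the same order. Insulin over Gcg cells reversed for Ppy in female cells (1.51) and without cells over 20000 UMIs (0.17), and for Pyy in female cells (1.14). The cause was not tested. With UMIs other than hormones as total it was -0.60 for Ppy and -0.35 for Pyy. The share of Ppy cells with another hormone was 80.2% at a limit of 0.5%, 53.6% at 5% and 74.7% in male cells. Isl1CKO cells with Ppy numbered 30 at a limit of 0.1%, and those with Pyy 34 at 0.5% and 85 at 0.1%. The insulin over Gcg ratios and the Npy ratio of Sst over Gcg cells were counted apart. For the other results, 41 alternatives changed the value by less than its counting interval or its count by less than 1.5 times. A larger change was seen in 36. The 41 include those of the Npy ratio between the libraries, whose interval is wide (-13.96 to -6.14). For the ratios counted apart, 10 changed less, 15 changed more and 3 reversed. Alternatives without single cells or without cells over 20000 UMIs were chosen after seeing the data.

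No paired analysis was possible because each genotype has 1 library. Doublets were removed in control only, free RNA limits levels under about 6 per 10000 in control, and Npy is limited by 145 UMIs. The animals in a pool cannot be told apart, and cells are not replicates.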
